A study of Mus musculus with 12 samples.

Results

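Kinesins are motor proteins that walk along microtubules or take them apart, using ATP. One set works in the dividing cell, where its members separate the spindle poles, align and carry chromosomes, and organise the midzone during cytokinesis. Another set hauls vesicles, mitochondria and ciliary cargo through the non-dividing cell. The remaining members act at microtubule ends, in cilia or in roles that are less well known. Genes of the mitotic set are transcribed mostly in the later part of the cell cycle, so their messenger RNA is high in cultures that divide. Family members were taken by their symbol, Kif followed by a number and at most one letter from a to c. This gave 37 of the 27179 genes in the table. By textbook roles, 12 of them are mitotic kinesins, 13 are transport kinesins and 12 are other kinesins. Kif2a, which also works at spindle poles, was counted with the other kinesins. Roles were chosen with earlier results of these data known.

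The cells were mouse embryonic fibroblasts from wild-type C57BL/6 embryos at day E13.5, grown in 3% oxygen with 10% serum. All of them received a compound at 10 µM. The 4 groups were WM-8014 for 240 h, WM-2474 for 240 h, WM-8014 for 96 h and WM-2474 for 96 h, with cultures 5, 6 and 7 in each. The labels call WM-8014 a MYST inhibitor, that is, an inhibitor of a family of histone acetyltransferases, and WM-2474 its inactive control. No untreated cells are among the samples, so every difference between compounds is relative to WM-2474. The series calls the cultures biological replicates but does not say whether they came from separate embryos. If they did not, the p-values measure only the spread between cultures.

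Library totals were 10147466 to 45903190 reads. All 8 fibroblast markers had enough reads for the test. Col1a1 was at 10746 to 20023 CPM (read counts relative to the library total after TMM scaling) and Dcn, the lowest, at 38.9 to 110 CPM. At an adjusted p under 0.05, 1 of 8 was higher with WM-8014 and 1 lower at 240 h (21.2% of all genes higher, 21.4% lower). At 96 h 1 was higher and 0 lower (10.9% of all genes higher, 11.8% lower). Pdgfra was at 150 to 154 CPM with WM-8014 and 193 to 220 with WM-2474 at 240 h. Of 11 markers of epithelium, leukocytes and endothelium, 6 had too few reads for the test, among them Epcam, Ptprc and Pecam1, which did not exceed 0.477 CPM in any library. Krt8, also untested, reached 0.879 CPM. The 5 tested reached 6.15 CPM for Csf1r and 4.33 for Cd68 (leukocytes), 2.89 for Kdr and 0.779 for Cdh5 (endothelium) and 2.51 for Krt18 (epithelium). Csf1r was higher with WM-8014 at 240 h, with a log2 change of 1.27 (SE 0.19, adjusted p = 1.51e-05). Kdr was lower at 240 h, with a log2 change of -0.79 (SE 0.29, adjusted p = 0.0337), and at 96 h, with -0.96 (SE 0.24, adjusted p = 0.00706), and Krt18 was lower at 96 h, with -1.33 (SE 0.27, adjusted p = 0.00126). With culture 5 as the only WM-2474 96 h library, these 96 h adjusted p values were 0.108 for Kdr and 0.0167 for Krt18. Other markers in these lists differed from Csf1r and Kdr at 240 h. Cdh5 had a log2 fold change of 0.67 and Cd68 had 0.11, and neither passed. Pecam1, with few reads, was at 0.115 to 0.303 CPM with WM-8014 and 0.0445 to 0.0536 with WM-2474. The part of such cells in the kinesin values was not tested. All libraries are labelled female, yet the Y-linked Ddx3y was at 96.3 to 124 CPM and Xist, which silences an X chromosome in female cells, at no more than 4 reads. In the WM-2474 96 h group, cultures 6 and 7 differ from all else in some genes picked here for that. Misp3 had 0.724 and 0.943 CPM in this pair, and from 79.9 to 285 CPM elsewhere. Calls at 96 h are therefore also given with culture 5 as the only WM-2474 96 h library, which is then assumed to vary like the other groups. Leaving out cultures 6 and 7 of that group lowers the power of this run by itself, so a lost call there can come with a similar log2 fold change. For genes outside the family this run was added after seeing the data. In bulk RNA, fewer dividing cells and less RNA per dividing cell cannot be told apart.

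The promoters of the mitotic set are shown first because its tested members moved together. In cell-cycle genes of the mitotic phase, the letters TTTGAA, the core of the cell-cycle genes homology region, and CCAAT, the NF-Y box, are known promoter elements. Both were searched on both strands in RefSeq windows (build GRCm38.p6) from 250 bases before to 50 bases after the start. Of the mitotic promoters, 9 of 11 (81.8%) held TTTGAA, against 1 of 12 (8.33%) transport promoters, 2 of 12 (16.7%) promoters of other kinesins and 17.9% of all 32851 promoters. CCAAT was in 7 of 11 (63.6%) mitotic promoters, 4 of 12 (33.3%) transport promoters, 4 of 12 (33.3%) promoters of other kinesins and 37.4% of all. The windows represent 31 of the 37 genes, some of them with more than 1 start. The 11 mitotic ones include Kif2b, which had no read and held CCAAT alone, and do not include Kif20a. Those printed below run from 75 bases before to 25 after the start, 5′ to 3′ on the gene's strand, with TTTGAA and CCAAT or their reverse complements TTCAAA and ATTGG in capitals. The stretch printed and the genes were chosen after the matches were seen.
Kif11, chr19:37376307-37376406, plus strand: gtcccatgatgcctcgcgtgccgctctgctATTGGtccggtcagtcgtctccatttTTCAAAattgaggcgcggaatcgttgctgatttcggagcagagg
Kif15, chr9:122951006-122951105, plus strand: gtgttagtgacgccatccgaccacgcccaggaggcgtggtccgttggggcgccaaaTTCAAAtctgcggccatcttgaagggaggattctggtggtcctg
Kif18b, chr11:102925100-102925199, minus strand: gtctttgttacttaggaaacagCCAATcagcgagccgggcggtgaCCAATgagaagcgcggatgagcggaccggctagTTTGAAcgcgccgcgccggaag
Kif20b, chr19:34922283-34922382, plus strand: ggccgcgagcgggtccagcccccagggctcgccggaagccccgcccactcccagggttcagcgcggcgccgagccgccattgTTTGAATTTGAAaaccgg
Kif22, chr7:127042396-127042495, minus strand: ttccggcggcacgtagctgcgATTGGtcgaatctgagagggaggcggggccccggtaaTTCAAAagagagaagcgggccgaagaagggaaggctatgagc
Kif23, chr9:61946775-61946874, minus strand: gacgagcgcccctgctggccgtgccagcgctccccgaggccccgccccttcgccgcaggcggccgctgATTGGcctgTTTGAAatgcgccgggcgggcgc
Kif4, chrX:100625990-100626089, plus strand: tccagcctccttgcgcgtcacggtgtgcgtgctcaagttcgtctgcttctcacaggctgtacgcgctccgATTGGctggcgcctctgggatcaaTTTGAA
Kif18a, chr2:109280663-109280762, plus strand: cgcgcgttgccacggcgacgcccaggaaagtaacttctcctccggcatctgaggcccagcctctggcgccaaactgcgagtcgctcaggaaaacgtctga
Kif1c, chr11:70700473-70700572, plus strand: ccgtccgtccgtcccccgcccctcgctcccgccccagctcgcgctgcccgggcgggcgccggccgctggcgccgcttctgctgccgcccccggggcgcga
Kif3b, chr2:153291341-153291440, plus strand: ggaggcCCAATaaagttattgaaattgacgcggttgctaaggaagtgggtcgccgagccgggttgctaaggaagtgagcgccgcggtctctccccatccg
The first 7 are mitotic kinesins with TTTGAA within the stretch. Kif18a is a mitotic kinesin without either motif anywhere in its longer window. The windows of Kif2a, which was counted with the other kinesins and is not printed, hold neither motif. Kif1c and Kif3b are transport kinesins, shown for contrast, and Kif3b holds CCAAT only. Among the other kinesins, not printed, Kif26b holds both motifs and Kif24 holds CCAAT without TTTGAA. At 240 h both were lower with WM-8014 than with WM-2474 (log2 fold changes of -0.71 and -0.93). From 96 to 240 h Kif26b rose under WM-8014 (0.68) and WM-2474 (1.34), while Kif24 fell (-1.58 and -0.9998). A match of letters is not evidence of binding, and the windows of Kif14 and Kif2c hold TTTGAA outside the stretch printed.

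Of the 37 genes, 32 had enough reads to be tested, 11 mitotic, 12 transport and 9 other kinesins. Kif2b, a depolymerase of the kinetochore, and Kif12 had no read in any library. Kif17, which carries cargo in dendrites and cilia, had 1 to 17 reads per library, Kif19a, a depolymerase of cilia, 0 to 5 and Kif27, a kinesin of motile cilia, 2 to 25. With these 5 set aside, the highest levels per kilobase of gene length belonged to the transport kinesins. Kif5b, the heavy chain of the widespread kinesin-1, stood at 83.3 ± 0.36 CPM per kilobase with WM-8014 at 240 h and 71.6 ± 2.8 with WM-2474 at 240 h. At 96 h its levels were 56.8 ± 1.3 CPM per kilobase with WM-8014 and 57.4 ± 0.52 with WM-2474 (mean ± SD, n = 3 cultures here and below). Kif1c, a kinesin-3 of integrin-bearing and secretory vesicles, came to 76.0 ± 2.4 CPM per kilobase with WM-8014 and 64.5 ± 0.79 with WM-2474 at 240 h, and to 65.2 ± 0.43 with WM-8014 and 59.5 ± 0.71 with WM-2474 at 96 h. These were the leading kinesins in each of the 4 groups. Kif5b was above Kif1c in both 240 h groups and below it in both 96 h groups, by more than their SDs. Next with WM-8014 at 240 h came Kif1a (23.8 ± 1.2), Kif1b (19.9 ± 0.55), Kif2a (16.5 ± 0.65) and Kif3b (12.3 ± 0.43), which differed from each other by more than their SDs. With WM-2474 at 240 h the order was Kif1a (33.1 ± 1.6), Kif2a (19.0 ± 0.80), Kif1b (18.4 ± 0.15) and the mitotic Kif20a (16.8 ± 0.76), and there Kif2a and Kif1b were within 1 SD of each other.

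Length-scaled levels were summed over each role. The mitotic kinesins together had 38.0, 42.9 and 37.0 CPM per kilobase with WM-8014 at 240 h (cultures 5, 6 and 7, the order of every triplet below) and 83.5, 89.6 and 91.9 with WM-2474. At 96 h they had 96.3, 105 and 104 CPM per kilobase with WM-8014 and 128, 129.7 and 134 with WM-2474. The 4 groups did not overlap. The transport kinesins summed to 247 ± 3.8 CPM per kilobase with WM-8014 and 228 ± 4.6 with WM-2474 at 240 h, and to 203 ± 2.6 with WM-8014 and 206 ± 0.77 with WM-2474 at 96 h. The other kinesins came to 32.1 ± 1.1 CPM per kilobase with WM-8014 and 41.4 ± 1.5 with WM-2474 at 240 h, and to 34.9 ± 0.85 with WM-8014 and 37.2 ± 0.98 with WM-2474 at 96 h. With WM-8014 the mean of the transport sum was higher than with WM-2474 at 240 h, and all the other means were lower. Mitotic members made up 12.3 ± 1.0% of the family's length-scaled level with WM-8014 and 24.7 ± 0.61% with WM-2474 at 240 h, and 29.9 ± 0.93% with WM-8014 and 34.9 ± 0.54% with WM-2474 at 96 h. These sums were not tested, and single genes were.

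**Figure D1:**
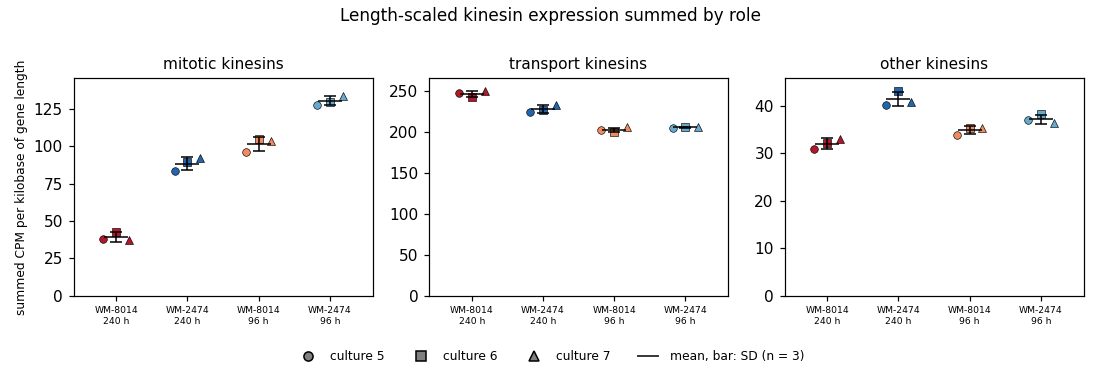
Summed CPM per kilobase of gene length of the mitotic, transport and other kinesins (3 panels), per library in the 4 groups, with the mean and SD of 3 cultures. The mitotic sum was lowest with WM-8014 at 240 h (39.3 ± 3.2) and highest with WM-2474 at 96 h (131 ± 3.0), while the transport sum was highest with WM-8014 at 240 h (247 ± 3.8).

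The first comparison asked how WM-8014 differed from its inactive control after 240 h. All 11 tested mitotic kinesins were lower with WM-8014 and none was higher, where 21.4% of all 14136 genes tested were lower and 21.2% higher at an adjusted p under 0.05. The log2 fold change from edgeR is called the log2 change below. Its median over them was -1.18, with a range of -1.43 to -0.45, and that of all genes was 0.0051. Among transport kinesins 7 of 12 were higher and 1 was lower, with a median of 0.14. Of the other kinesins 1 of 9 was higher and 5 were lower, with a median of -0.20. Kif2a, which also works at spindle poles, was among the lower ones, with a log2 change of -0.20, outside the range of the mitotic set. The second comparison set the compounds side by side after 96 h. Here 10 of 11 mitotic kinesins were lower and none was higher, beside 11.8% of all genes lower and 10.9% higher. Their median was -0.35, and that of all genes lay at 6.3e-05. Transport kinesins counted 2 higher and 4 lower of 12, and other kinesins 0 higher and 1 lower of 9. With culture 5 as the only WM-2474 96 h library, the mitotic kinesins lower at 96 h were 3 of 11, with all 11 still negative and a median of -0.31. In that run 2.98% of 14647 genes were lower and 2.95% higher.

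**Figure D2:**
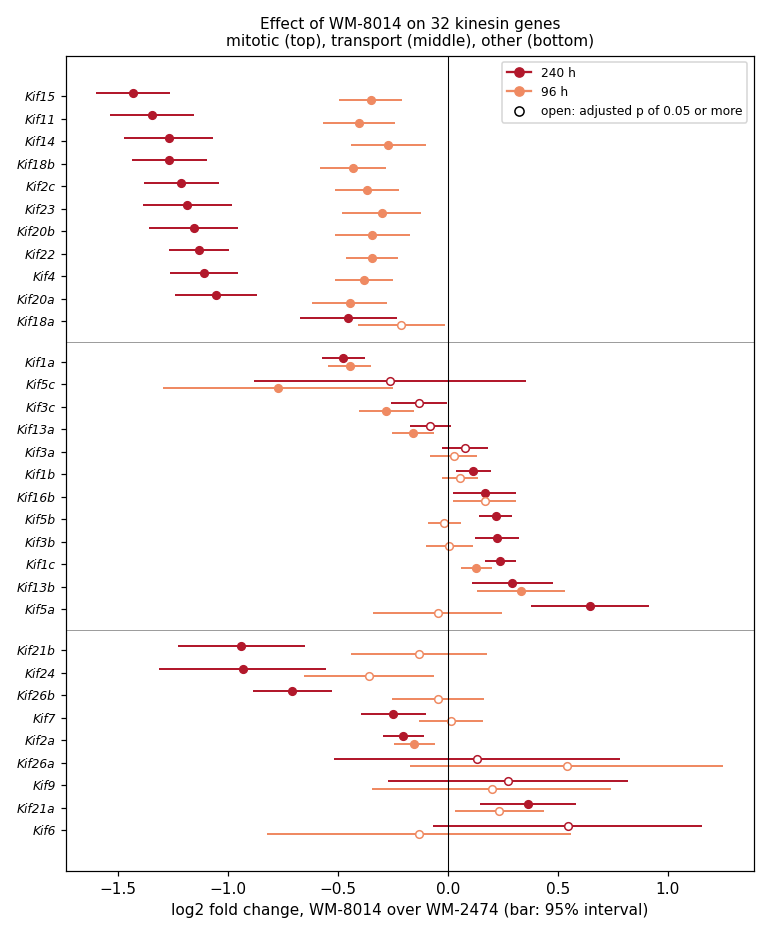
Log2 fold change of WM-8014 over WM-2474 at 240 h and at 96 h for the 32 tested kinesins, with 95% intervals and open points where the adjusted p was 0.05 or more. The 11 mitotic kinesins lie left of 0 at both times and, except Kif18a, their 240 h and 96 h intervals do not overlap, while the transport kinesins scatter around 0.

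Among the motors that build the spindle, Kif11 (Eg5) slides antiparallel microtubules apart to separate the poles, and Kif15 can share that work. Kif11 had 12.3, 16.7 and 13.3 CPM with WM-8014 and 33.8, 39.5 and 37.8 CPM with WM-2474 at 240 h. Its 96 h values were 41.0, 44.7 and 44.2 CPM with WM-8014 and 60.3, 54.5 and 57.4 CPM with WM-2474. Every WM-8014 culture was below every WM-2474 culture at each time, and log2 changes were -1.34 (SE 0.088, adjusted p = 1.43e-09) at 240 h and -0.40 (SE 0.076, adjusted p = 0.000949) at 96 h. Kif15 measured 9.08, 10.5 and 9.41 CPM with WM-8014 and 27.3, 25.9 and 26.5 CPM with WM-2474 at 240 h, and 27.4, 31.2 and 31.9 CPM with WM-8014 and 37.5, 36.6 and 40.3 CPM with WM-2474 at 96 h. Its groups were as far apart, and its log2 change of -1.43 (SE 0.078, adjusted p = 1.08e-11) at 240 h was the lowest of the family. At 96 h Kif15 was lower, with a log2 change of -0.35 (SE 0.066, adjusted p = 0.000634). That 96 h call ended with culture 5 as the only WM-2474 96 h library (adjusted p = 0.0792), and that of Kif11 did not (adjusted p = 0.0261).

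The next genes act on chromosomes and microtubule ends. Kif2c (MCAK), which strips tubulin from microtubule ends at centromeres, had 10.9, 11.7 and 10.3 CPM with WM-8014 and 23.6, 26.1 and 26.9 CPM with WM-2474 at 240 h. At 96 h Kif2c had 30.2, 29.5 and 32.8 CPM with WM-8014 and 36.3, 41.5 and 40.8 CPM with WM-2474. The groups were separate at both times, with log2 changes of -1.21 (SE 0.079, adjusted p = 1.2e-10) and -0.37 (SE 0.067, adjusted p = 0.000483) at 240 and 96 h. Kif18b, which limits the length of astral microtubules, had 8.07, 8.54 and 8.37 CPM with WM-8014 and 19.6, 20.7 and 20.1 CPM with WM-2474 at 240 h. Its 96 h values were 20.4, 19.7 and 18.9 CPM with WM-8014 and 26.8, 24.1 and 27.8 CPM with WM-2474. The WM-8014 cultures were again lowest, with log2 changes of -1.26 (SE 0.079, adjusted p = 6.79e-11) at 240 h and -0.43 (SE 0.070, adjusted p = 0.000165) at 96 h. Of these 2 genes, the 96 h call of Kif2c ended with culture 5 as the only WM-2474 96 h library (adjusted p = 0.2) and that of Kif18b did not (adjusted p = 0.016).

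Both chromokinesins, Kif4 and Kif22 (Kid), bind chromosome arms, and Kif22 pushes them toward the spindle equator. Kif4 came to 13.5, 15.5 and 12.7 CPM with WM-8014 and 29.6, 30.7 and 31.0 CPM with WM-2474 at 240 h, and to 33.3, 37.7 and 37.5 CPM with WM-8014 and 46.5, 46.5 and 47.8 CPM with WM-2474 at 96 h. The cultures of each group lay close together and the groups apart, with log2 changes of -1.11 (SE 0.072, adjusted p = 1.07e-10) at 240 h and -0.38 (SE 0.062, adjusted p = 0.000173) at 96 h. Kif22 had 13.4, 13.6 and 13.3 CPM with WM-8014 and 28.0, 29.8 and 30.5 CPM with WM-2474 at 240 h. The 96 h cultures held 33.6, 35.0 and 31.9 CPM with WM-8014 and 41.2, 43.6 and 42.5 CPM with WM-2474. Kif22 was lower, with a log2 change of -1.13 (SE 0.063, adjusted p = 1.33e-11) at 240 h and -0.34 (SE 0.055, adjusted p = 0.000147) at 96 h, with no overlap. With culture 5 as the only WM-2474 96 h library, the 96 h adjusted p of Kif22 was 0.0528 and that of Kif4 was 0.0391. The annotated processed copy Kif4-ps held 0 to 1 reads per library.

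Kif20a and Kif23 serve the central spindle. Kif20a (MKLP2) brings the chromosomal passenger complex with Aurkb to the midzone, and Kif23 (MKLP1) forms centralspindlin with Racgap1. Kif20a had 30.6, 35.3 and 27.8 CPM with WM-8014 and 62.6, 65.6 and 68.5 CPM with WM-2474 at 240 h. At 96 h it had 65.3, 80.4 and 74.4 CPM with WM-8014 and 98.2, 101 and 100.4 CPM with WM-2474. It was the mitotic kinesin with the highest level per kilobase in each group, and it was lower with WM-8014, with a log2 change of -1.05 (SE 0.084, adjusted p = 2.58e-07) at 240 h and -0.44 (SE 0.077, adjusted p = 0.00107) at 96 h. Kif23 had 16.5, 22.1 and 17.9 CPM with WM-8014 and 39.8, 45.3 and 47.5 CPM with WM-2474 at 240 h, and 46.9, 51.6 and 52.2 CPM with WM-8014 and 59.9, 59.5 and 64.8 CPM with WM-2474 at 96 h. Its groups did not overlap at either time, with log2 changes of -1.18 (SE 0.092, adjusted p = 8e-08) and -0.30 (SE 0.082, adjusted p = 0.0163) at 240 and 96 h. The 96 h adjusted p of Kif20a was 0.0752 with culture 5 as the only WM-2474 96 h library, and that of Kif23 was 0.284 with culture 5 as the only WM-2474 96 h library, 0.0759 without culture 5 of the WM-8014 96 h group, and 0.0946 without culture 7 of the WM-2474 96 h group. In the annotation Kif20a overlaps Brd8 and Cdc23, which had up to 3470 and 3351 reads, and the strand setting of the counting is not given in the sources used here.

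The remaining mitotic members followed. Kif14, which holds Prc1 and citron kinase at the midbody, averaged 7.08 ± 0.39 CPM with WM-8014 and 17.3 ± 1.2 with WM-2474 at 240 h, lower, with a log2 change of -1.27 (SE 0.095, adjusted p = 8.56e-10). At 96 h the log2 change was -0.27 (SE 0.081, adjusted p = 0.0191), and its adjusted p was 0.143 after thinning to equal totals, 0.0632 with culture 5 as the only WM-2474 96 h library, 0.0982 without culture 5 of the WM-8014 96 h group, and 0.0678 and 0.123 without culture 5 or 7 of the WM-2474 96 h group. Kif20b, needed for abscission, was lower, with a log2 change of -1.15 (SE 0.094, adjusted p = 1.17e-08) at 240 h and -0.34 (SE 0.079, adjusted p = 0.00441) at 96 h, the 96 h value with an adjusted p of 0.26 with culture 5 as the only WM-2474 96 h library. Kif18a, which damps chromosome movements before anaphase, had the smallest change of the set. It averaged 6.41 ± 0.67 CPM with WM-8014 and 8.98 ± 0.59 with WM-2474 at 240 h, lower, with a log2 change of -0.45 (SE 0.10, adjusted p = 0.00136). At 96 h it was at 12.04 ± 0.63 CPM with WM-8014 and 13.9 ± 1.1 with WM-2474, and its difference of -0.21 (95% interval -0.40 to -0.018, adjusted p = 0.11) did not pass. Kif18a overlaps Mettl15, which had up to 257 reads in a library.

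**Figure D3:**
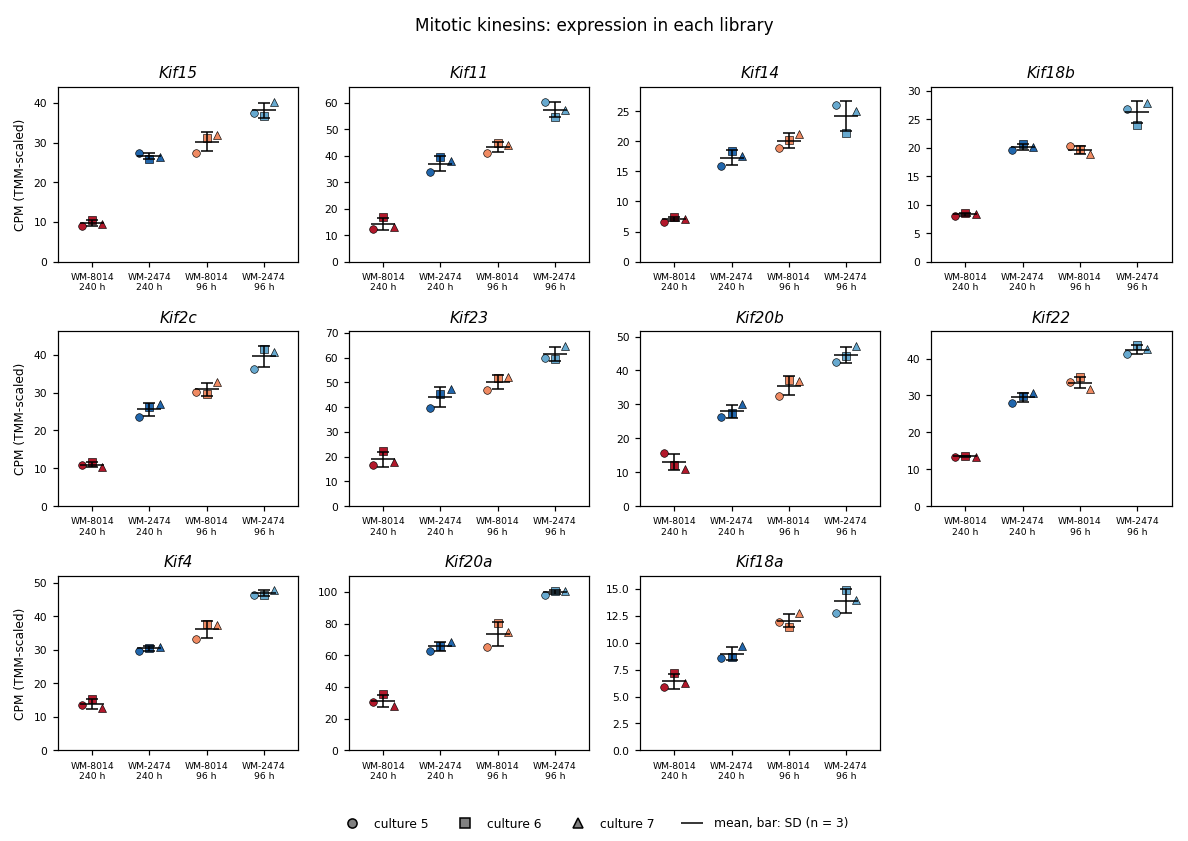
TMM-scaled CPM of the 11 tested mitotic kinesins in each library of the 4 groups, with the mean and SD of 3 cultures, ordered by their change at 240 h. In each panel the mean with WM-8014 at 240 h is the lowest of the 4 groups.

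Transport kinesins moved in both directions at each time. Kif5b was 501, 500.3 and 505 CPM with WM-8014 and 418, 427 and 451 CPM with WM-2474 at 240 h, with all 3 WM-8014 cultures above the WM-2474 cultures. At 96 h the values overlapped, at 343, 335 and 350.0 CPM with WM-8014 and 349.7, 344 and 344 CPM with WM-2474. The log2 change was 0.22 (SE 0.033, adjusted p = 1.81e-05) at 240 h and -0.015 (SE 0.034, adjusted p = 0.796) at 96 h. Its brain paralogs had few reads. Kif5a, mostly a neuronal kinesin-1, had 8.58, 8.64 and 8.37 CPM with WM-8014 and 5.57, 6.36 and 4.36 CPM with WM-2474 at 240 h, higher with WM-8014, with a log2 change of 0.65 (SE 0.13, adjusted p = 0.000287). Its 96 h values were 5.16, 6.41 and 5.28 CPM with WM-8014 and 5.20, 5.79 and 6.05 CPM with WM-2474, which overlapped (log2 fold change -0.045, adjusted p = 0.854). Kif5a overlaps Dctn2, which had up to 10995 reads where Kif5a had 56 to 295, so reads of the other strand, if counted, would weigh on it. Dctn2 was itself at 273 to 275 CPM with WM-8014 and 244 to 251 with WM-2474 at 240 h. At 96 h Dctn2 was at 223 to 225 CPM with WM-8014 and 222 to 225 with WM-2474. The part of Dctn2 reads in the Kif5a values was not tested. Kif5c, at 0.588 to 2.03 CPM, was lower at 96 h, with a log2 change of -0.77 (SE 0.25, adjusted p = 0.0287) and did not pass at 240 h (log2 fold change -0.26, adjusted p = 0.502). The 96 h call of Kif5c ended in several runs, with an adjusted p of 0.128 with DESeq2, 0.0833 after thinning to equal totals, 0.365 with culture 5 as the only WM-2474 96 h library, 0.0645 and 0.14 without culture 6 or 7 of the WM-8014 96 h group, and 0.155 without culture 7 of the WM-2474 96 h group.

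The kinesin-3 genes split. Kif1a, which hauls synaptic and dense-core vesicles in neurons, had 199, 187 and 205 CPM with WM-8014 and 262, 270.0 and 287 CPM with WM-2474 at 240 h. The 96 h cultures held 187, 173 and 193 CPM with WM-8014 and 252, 245 and 256 CPM with WM-2474. It was lower in every WM-8014 culture, with log2 changes of -0.47 (SE 0.044, adjusted p = 2.76e-08) at 240 h and -0.45 (SE 0.045, adjusted p = 1.07e-06) at 96 h, the transport kinesin with the smallest adjusted p at either time. Kif1c had 519, 496 and 527 CPM with WM-8014 and 435, 431 and 442 CPM with WM-2474 at 240 h, and 439.9, 444 and 439 CPM with WM-8014 and 397, 406 and 404 CPM with WM-2474 at 96 h. It was higher in every WM-8014 culture, with log2 changes of 0.24 (SE 0.032, adjusted p = 3.22e-06) and 0.13 (SE 0.032, adjusted p = 0.00543) at 240 and 96 h. Its 96 h adjusted p was 0.0885 with culture 5 as the only WM-2474 96 h library, where that of Kif1a was 0.00104. Kif1b, which carries mitochondria and synaptic vesicle precursors, had 297, 303 and 287 CPM with WM-8014 and 274, 275 and 270.3 CPM with WM-2474 at 240 h, higher, with a log2 change of 0.12 (SE 0.036, adjusted p = 0.0113). At 96 h Kif1b had 246, 258 and 269 CPM with WM-8014 and 243, 247 and 253 CPM with WM-2474, which overlapped (log2 fold change 0.056, adjusted p = 0.293). Its 240 h adjusted p was 0.0645 without culture 6 of the WM-8014 240 h group.

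Kif13a, which brings mannose-6-phosphate receptor vesicles and recycling endosomes to the cell periphery, had 55.1, 55.6 and 58.2 CPM with WM-8014 and 60.7, 60.3 and 57.5 CPM with WM-2474 at 240 h, which overlapped (log2 fold change -0.078, adjusted p = 0.146). At 96 h it had 52.8, 50.9 and 50.7 CPM with WM-8014 and 57.7, 57.7 and 56.8 CPM with WM-2474, lower, with a log2 change of -0.16 (SE 0.044, adjusted p = 0.0135), with an adjusted p of 0.181 with culture 5 as the only WM-2474 96 h library. Its relative Kif13b, a partner of the scaffold Dlg1, went the other way. Kif13b had 24.7, 22.6 and 26.2 CPM with WM-8014 and 20.5, 18.1 and 21.1 CPM with WM-2474 at 240 h, higher, with a log2 change of 0.29 (SE 0.086, adjusted p = 0.00899). Its 96 h values were 17.5, 21.8 and 17.2 CPM with WM-8014 and 14.6, 14.04 and 15.6 CPM with WM-2474, higher, with a log2 change of 0.33 (SE 0.095, adjusted p = 0.014). The WM-8014 cultures were above the others at both times. At 240 h the adjusted p of Kif13b was 0.053 without culture 7 of the WM-8014 240 h group, and 0.0646 without culture 6 of the WM-2474 240 h group. Its 96 h counterpart was 0.0566 after thinning to equal totals, 0.19 with culture 5 as the only WM-2474 96 h library, 0.121 without culture 6 of the WM-8014 96 h group, and 0.0501 without culture 6 of the WM-2474 96 h group. Kif16b, which carries early endosomes, was higher, with a log2 change of 0.17 (SE 0.067, adjusted p = 0.048) at 240 h with overlapping groups, and was at a log2 fold change of 0.17 (adjusted p = 0.0758) at 96 h. Its 240 h adjusted p ended above the threshold in 13 of 18 alternative runs, at 0.105 with DESeq2, 0.059 with no filter on low counts, 0.0623 with culture 5 as the only WM-2474 96 h library, 0.0576, 0.0536 and 0.0542 without culture 5, 6 or 7 of the WM-8014 96 h group, 0.0573, 0.0528 and 0.0528 without culture 5, 6 or 7 of the WM-2474 96 h group, 0.128 and 0.137 without culture 5 or 6 of the WM-8014 240 h group, and 0.178 and 0.185 without culture 6 or 7 of the WM-2474 240 h group. At 96 h it was 0.041 without culture 5 of the WM-2474 240 h group.

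Kif3a and Kif3b form the kinesin-2 motor of intraflagellar transport, which builds cilia. Kif3a had 44.2, 44.1 and 45.2 CPM with WM-8014 and 41.6, 43.8 and 40.8 CPM with WM-2474 at 240 h, and 46.0, 47.3 and 49.6 CPM with WM-8014 and 45.1, 47.9 and 46.9 CPM with WM-2474 at 96 h. Its log2 changes of 0.080 (95% interval -0.020 to 0.18, adjusted p = 0.19) and 0.027 (95% interval -0.074 to 0.13, adjusted p = 0.736) did not pass. Kif3b had 72.0, 68.7 and 67.3 CPM with WM-8014 and 57.0, 60.6 and 59.8 CPM with WM-2474 at 240 h. The 96 h cultures held 57.2, 53.4 and 57.4 CPM with WM-8014 and 54.1, 58.8 and 54.5 CPM with WM-2474. The cultures were separate at 240 h, higher with WM-8014, with a log2 change of 0.22 (SE 0.046, adjusted p = 0.00047), and overlapped at 96 h (log2 fold change 0.0075, adjusted p = 0.936). Kif3c, an alternative partner of Kif3a, had 29.6, 28.7 and 28.5 CPM with WM-8014 and 29.9, 30.9 and 33.9 CPM with WM-2474 at 240 h. Its 96 h values were 34.6, 34.2 and 31.7 CPM with WM-8014 and 41.3, 42.1 and 39.2 CPM with WM-2474. Kif3c was lower, with a log2 change of -0.28 (SE 0.058, adjusted p = 0.00157) at 96 h, and its 240 h difference of -0.13 (adjusted p = 0.0823) did not pass. The adjusted p at 240 h was 0.033 without culture 5 of the WM-2474 240 h group, and at 96 h it was 0.0561 with culture 5 as the only WM-2474 96 h library.

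Several of these genes are best known from neurons, so neuronal and glial markers were read beside them. Of 8 markers 3 had enough reads for the test. Snap25 and Rbfox3 did not exceed 0.136 and 0.0682 CPM in any library, while Stmn2 and Tubb3 were present at 22.4 to 98.5 and 50.04 to 69.2 CPM. The list summed to 149 to 159 CPM with WM-8014 and 107 to 123 with WM-2474 at 240 h, and to 101 to 121 with WM-8014 and 82.1 to 100.4 with WM-2474 at 96 h. Stmn2 was the member that was higher with WM-8014, with log2 changes of 0.96 (SE 0.20, adjusted p = 0.00438) at 240 h and 0.80 (SE 0.23, adjusted p = 0.037) at 96 h, where its adjusted p was 0.463 with culture 5 as the only WM-2474 96 h library. Of the 3 skeletal muscle markers Des alone had enough reads, and it was higher, with a log2 change of 1.61 (SE 0.10, adjusted p = 1.01e-07) at 240 h, with the list at 81.8 to 106 CPM with WM-8014 and 28.2 to 34.7 with WM-2474. Myog and Myh3 did not exceed 0.225 and 0.615 CPM. The part of such cells in the transport kinesins was not tested.

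**Figure D4:**
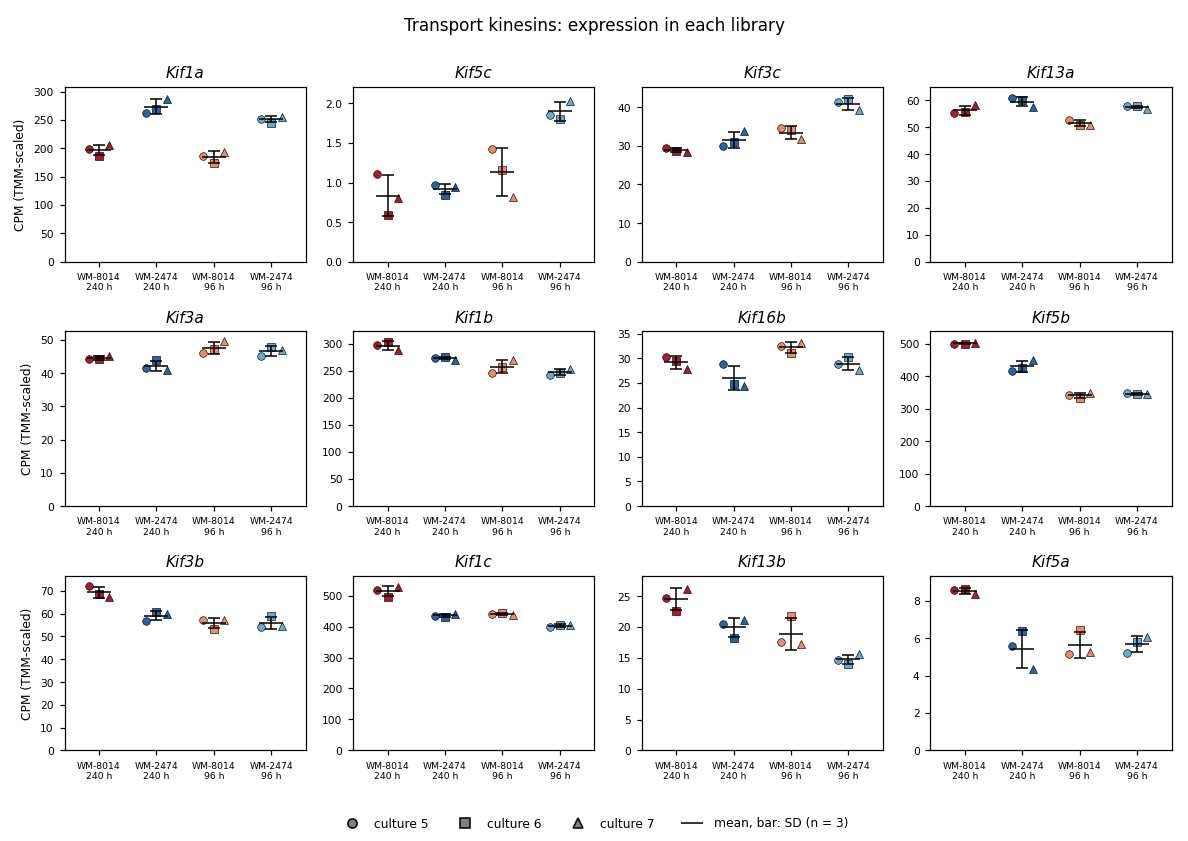
TMM-scaled CPM of the 12 tested transport kinesins in each library of the 4 groups, with the mean and SD of 3 cultures, ordered by their change at 240 h. Kif1a is lower with WM-8014 at both times, while Kif5b and Kif5a are highest with WM-8014 at 240 h and their 96 h groups overlap.

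The other kinesins hold genes with larger 240 h changes. Kif26b, known in the mouse from kidney development and as a target of Wnt5a signalling, had 45.1, 48.6 and 50.1 CPM with WM-8014 and 74.2, 83.3 and 78.1 CPM with WM-2474 at 240 h. At 96 h it had 26.1, 32.5 and 31.7 CPM with WM-8014 and 27.9, 36.0 and 29.7 CPM with WM-2474. The groups were separate at 240 h, lower with WM-8014, with a log2 change of -0.71 (SE 0.082, adjusted p = 7.84e-06), and overlapped at 96 h (log2 fold change -0.045, adjusted p = 0.785). Kif21b, which holds back microtubule growth, had 21.6, 18.7 and 26.8 CPM with WM-8014 and 39.0, 44.6 and 43.2 CPM with WM-2474 at 240 h, and 23.6, 24.2 and 23.1 CPM with WM-8014 and 21.1, 29.8 and 26.0 CPM with WM-2474 at 96 h. It was lower, with a log2 change of -0.94 (SE 0.13, adjusted p = 0.000123) at 240 h and overlapped at 96 h (log2 fold change -0.13, adjusted p = 0.547). Its relative Kif21a had 11.9, 10.9 and 10.4 CPM with WM-8014 and 9.01, 8.76 and 7.77 CPM with WM-2474 at 240 h, and was higher there, with a log2 change of 0.37 (SE 0.10, adjusted p = 0.00625). At 96 h Kif21a had 14.9, 16.4 and 14.9 CPM with WM-8014 and 15.1, 13.4 and 11.9 CPM with WM-2474, a difference of 0.23 (adjusted p = 0.0814). The adjusted p at 96 h was 0.0312 without culture 5 of the WM-2474 96 h group.

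Kif24, a centriolar depolymerase that restrains the assembly of cilia, had 1.72, 2.11 and 1.62 CPM with WM-8014 and 4.23, 3.33 and 3.22 CPM with WM-2474 at 240 h. At 96 h Kif24 had 4.75, 6.34 and 5.68 CPM with WM-8014 and 8.08, 6.80 and 6.93 CPM with WM-2474. It was lower with WM-8014, with a log2 change of -0.93 (SE 0.18, adjusted p = 0.000246) at 240 h, and its log2 change of -0.36 (SE 0.14, adjusted p = 0.0697) at 96 h did not pass although the groups were separate. That 96 h adjusted p was 0.0474 with a replicate block, and 0.0499 without culture 6 of the WM-8014 96 h group. Kif7, which acts at the ciliary tip in Hedgehog signalling, had 16.04, 16.7 and 17.02 CPM with WM-8014 and 20.7, 19.4 and 19.3 CPM with WM-2474 at 240 h, lower, with a log2 change of -0.25 (SE 0.069, adjusted p = 0.00585). Its 96 h values were 21.4, 22.6 and 23.5 CPM with WM-8014 and 21.0, 21.9 and 23.1 CPM with WM-2474, which overlapped (log2 fold change 0.016, adjusted p = 0.958). Kif7 overlaps Ticrr, which had up to 840 reads. Kif2a, a depolymerase of spindle poles and growing axons, had 66.3, 71.4 and 70.5 CPM with WM-8014 and 77.7, 84.0 and 78.7 CPM with WM-2474 at 240 h. At 96 h its values were 79.5, 78.4 and 80.8 CPM with WM-8014 and 90.2, 89.7 and 86.1 CPM with WM-2474. Kif2a was lower at both times, with log2 changes of -0.20 (SE 0.043, adjusted p = 0.000582) at 240 h and -0.15 (SE 0.043, adjusted p = 0.0133) at 96 h, where its adjusted p was 0.112 with culture 5 as the only WM-2474 96 h library.

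Kif6, Kif9 and Kif26a were close to the lower limit of the table, with 8 to 36, 10 to 66 and 5 to 34 reads per library, and none of them passed at either time. For Kif6 the log2 fold change was 0.55 (adjusted p = 0.139) at 240 h, and its adjusted p was 0.0372 without culture 7 of the WM-8014 240 h group. For Kif9 it was 0.27 (adjusted p = 0.421), and for Kif26a 0.13 (adjusted p = 0.76). Kif6 and Kif9 belong to motile cilia. Of 5 multiciliated cell markers Ccdc39 alone had enough reads for the test, and Tekt1 had no read in any library. The 5 summed to 1.97 ± 0.42 CPM with WM-8014 and 1.87 ± 0.19 with WM-2474 at 240 h.

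**Figure D5:**
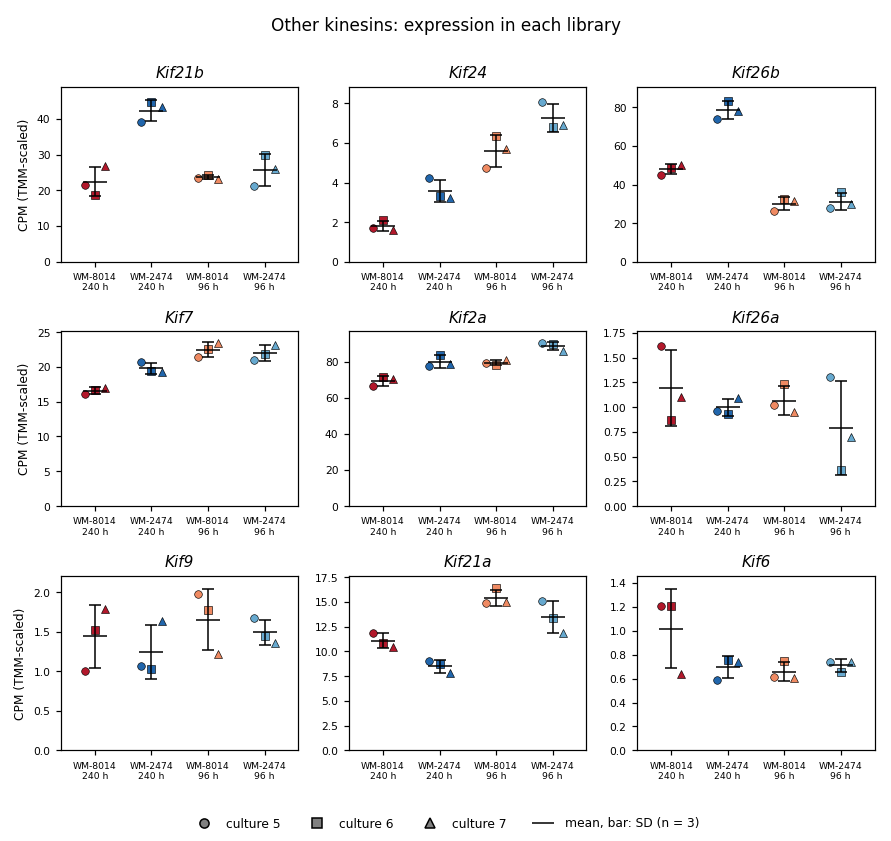
TMM-scaled CPM of the 9 tested other kinesins in each library of the 4 groups, with the mean and SD of 3 cultures, ordered by their change at 240 h. Kif26b and Kif21b stand highest with WM-2474 at 240 h, whereas Kif24 is lowest with WM-8014 at 240 h.

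Whether the effect of WM-8014 differed between times was tested as an interaction, the log2 fold change at 240 h minus that at 96 h. Of the mitotic kinesins 10 of 11 had a more negative effect at 240 h and none a more positive one, where 5.53% of all genes were lower and 5.15% higher. Their median interaction was -0.84, against -0.0042 for all genes, and single values ran from -1.08 for Kif15 to -0.24 for Kif18a, whose adjusted p of 0.324 did not pass. Of 12 transport kinesins 3 had a more positive effect at 240 h and none a more negative one. They were Kif5b (log2 difference 0.23, SE 0.048, adjusted p = 0.00249), Kif5a (log2 difference 0.69, SE 0.19, adjusted p = 0.0194) and Kif3b (log2 difference 0.22, SE 0.067, adjusted p = 0.0403). Of these 3, Kif5b stayed past the threshold in all 18 alternative runs. Kif5a did not, with an adjusted p of 0.0612 after thinning to equal totals, 0.348 with culture 5 as the only WM-2474 96 h library, 0.0551 and 0.0506 without culture 5 or 7 of the WM-8014 96 h group, 0.0908 without culture 7 of the WM-2474 96 h group, and 0.053 without culture 7 of the WM-2474 240 h group. Kif3b lost its call in 11 of 18 runs, with 0.0838 with DESeq2, 0.229 after thinning to equal totals, 0.331 with culture 5 as the only WM-2474 96 h library, 0.0531 and 0.116 without culture 5 or 6 of the WM-8014 96 h group, 0.116 and 0.0558 without culture 6 or 7 of the WM-2474 96 h group, 0.103 and 0.0668 without culture 5 or 6 of the WM-8014 240 h group, and 0.106 and 0.0618 without culture 5 or 7 of the WM-2474 240 h group. For Kif1a the interaction was -0.028 (95% interval -0.16 to 0.10, adjusted p = 0.849), and for Kif1c 0.11 (95% interval 0.014 to 0.20, adjusted p = 0.143).

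Among other kinesins the interaction passed for Kif26b (log2 difference -0.66, SE 0.13, adjusted p = 0.00382) and Kif21b (log2 difference -0.81, SE 0.19, adjusted p = 0.0194), both more negative at 240 h. The call of Kif21b was lost in some runs, with an adjusted p of 0.0539 with no filter on low counts, 0.0531 and 0.0566 without culture 5 or 6 of the WM-8014 96 h group, and 0.0545 without culture 7 of the WM-2474 96 h group. The difference of Kif24 between times, -0.58 (95% interval -1.05 to -0.098, adjusted p = 0.122), did not pass, nor did that of Kif7 (log2 difference -0.26, adjusted p = 0.0868). For Kif2a the log2 difference was -0.050 (adjusted p = 0.692).

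Time in culture moved the family under either compound. Under WM-8014 all 11 mitotic kinesins were lower at 240 h than at 96 h (25% of all genes were lower and 24.8% higher), with a median log2 fold change of -1.37. Under WM-2474 all 11 were lower too (19.1% of all genes lower, 19.8% higher), with a median of -0.61. The medians of all genes were -0.017 and -0.014 under WM-8014 and WM-2474. On the log2 scale Kif15 changed by -1.61 (SE 0.080, adjusted p = 4.39e-13) under WM-8014 and -0.54 (SE 0.065, adjusted p = 9.17e-07) under WM-2474, and Kif11 by -1.57 (SE 0.089, adjusted p = 8.61e-11) under WM-8014 and -0.63 (SE 0.074, adjusted p = 2.52e-06) under WM-2474. The 2 time comparisons and the 2 compound comparisons share libraries, so these values are not independent of the ones above.

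Over time, transport kinesins counted 7 higher and 1 lower of 12 under WM-8014, where 24.8% of all genes were higher and 25% lower. Under WM-2474 they counted 5 higher and 3 lower, beside 19.8% and 19.1% of all genes. Of the WM-2474 calls, that of Kif1a (higher, adjusted p = 0.0334) was lost in 7 of 18 alternative runs and that of Kif3a (lower, adjusted p = 0.0157) in 6. The WM-8014 call of Kif13a (higher, adjusted p = 0.0185) was lost in 5. Kif5b rose under both, with log2 changes of 0.55 (SE 0.034, adjusted p = 1.26e-11) under WM-8014 and 0.32 (SE 0.034, adjusted p = 1.26e-07) under WM-2474. Kif5a rose under WM-8014 (log2 change 0.60, SE 0.13, adjusted p = 0.000751) and was at a log2 fold change of -0.089 (adjusted p = 0.635) under WM-2474. Kif3b rose under WM-8014, with a log2 change of 0.30 (SE 0.048, adjusted p = 1.82e-05), with 0.086 (adjusted p = 0.158) under WM-2474. Kif13b rose, with log2 changes of 0.37 (SE 0.091, adjusted p = 0.00174) under WM-8014 and 0.41 (SE 0.090, adjusted p = 0.000907) under WM-2474, the second with an adjusted p of 0.0525 with culture 5 as the only WM-2474 96 h library. Kif3c fell under both, with log2 changes of -0.21 (SE 0.061, adjusted p = 0.00613) under WM-8014 and -0.36 (SE 0.057, adjusted p = 2.51e-05) under WM-2474. Medians were 0.17 under WM-8014 and 0.069 under WM-2474.

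Other kinesins counted 1 higher and 4 lower of 9 over time under WM-8014, where 24.8% of all genes were higher and 25% lower. Under WM-2474 they counted 2 higher and 4 lower, beside 19.8% and 19.1% of all genes. The WM-2474 call of Kif2a (lower, adjusted p = 0.00995) was lost in 3 of 18 alternative runs. Kif26b rose, with log2 changes of 0.68 (SE 0.092, adjusted p = 2.61e-05) under WM-8014 and 1.34 (SE 0.085, adjusted p = 1.73e-08) under WM-2474, the highest value of the family in that comparison. Kif21b rose under WM-2474, with a log2 change of 0.71 (SE 0.12, adjusted p = 0.000839) and was at a log2 fold change of -0.096 (adjusted p = 0.609) under WM-8014. Kif24 fell, with log2 changes of -1.58 (SE 0.18, adjusted p = 1.5e-07) under WM-8014 and -0.9998 (SE 0.14, adjusted p = 7.66e-06) under WM-2474. Kif21a fell, with -0.49 (SE 0.099, adjusted p = 0.000286) under WM-8014 and -0.62 (SE 0.099, adjusted p = 3.21e-05) under WM-2474 on the log2 scale, and its 240 h level was higher with WM-8014 than with WM-2474. Kif7 fell, with a log2 change of -0.43 (SE 0.070, adjusted p = 2.52e-05) under WM-8014. Its fall under WM-2474, -0.17 (SE 0.066, adjusted p = 0.0444), was lost in 11 of 18 runs, with an adjusted p of 0.0552 with a replicate block, 0.137 with DESeq2, 0.0937 with no filter on low counts, 0.364 after thinning to equal totals, 0.639 with culture 5 as the only WM-2474 96 h library, 0.0526 without culture 6 of the WM-8014 96 h group, 0.0678 and 0.285 without culture 6 or 7 of the WM-2474 96 h group, 0.054 without culture 5 of the WM-8014 240 h group, and 0.126 and 0.127 without culture 6 or 7 of the WM-2474 240 h group.

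Kinesins and kinesin light chains whose symbols do not match the pattern were read from a list of 9. At 240 h 4 of 9 were higher and 2 lower (21.2% of all genes higher, 21.4% lower), and at 96 h 1 was higher and 2 lower (10.9% of all genes higher, 11.8% lower). Both that were lower at each time are mitotic motors, Cenpe at kinetochores and the minus-end directed Kifc1. Cenpe was lower, with a log2 change of -1.09 (SE 0.079, adjusted p = 9.51e-09) at 240 h and -0.29 (SE 0.070, adjusted p = 0.00667) at 96 h, and Kifc1 had -0.71 (SE 0.065, adjusted p = 1.49e-08) at 240 h and -0.31 (SE 0.060, adjusted p = 0.000843) at 96 h. The 96 h adjusted p was 0.207 for Cenpe and 0.0487 for Kifc1 with culture 5 as the only WM-2474 96 h library. Klc4, a light chain that couples kinesin-1 to its cargo, was higher, with a log2 change of 0.37 (SE 0.066, adjusted p = 0.000118) at 240 h and at a log2 fold change of 0.16 (adjusted p = 0.109) at 96 h. Klc2, Klc3 and Kifc3 were the others that were higher at 240 h, and Kifap3, the subunit that joins Kif3a and Kif3b, did not pass (log2 fold change 0.062, adjusted p = 0.338).

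Genes that work with the mitotic kinesins were read from a list of 14 spindle and midzone partners. All 14 were lower with WM-8014 at 240 h, where 21.4% of all genes were lower, and 13 of 14 at 96 h, where 11.8% were. Their medians were -0.99 at 240 h and -0.38 at 96 h. With culture 5 as the only WM-2474 96 h library 9 of 14 were lower at 96 h, beside 2.98% of all genes. Racgap1, the partner of Kif23, was lower, with a log2 change of -1.14 (SE 0.058, adjusted p = 4.23e-12) at 240 h and -0.38 (SE 0.053, adjusted p = 3.37e-05) at 96 h. Aurkb, the kinase that Kif20a brings to the midzone, was lower, with a log2 change of -1.34 (SE 0.076, adjusted p = 1.59e-11) at 240 h and -0.40 (SE 0.064, adjusted p = 0.000143) at 96 h. Prc1, which bundles midzone microtubules, was lower, with a log2 change of -0.97 (SE 0.063, adjusted p = 1.91e-10) at 240 h and -0.41 (SE 0.059, adjusted p = 5.22e-05) at 96 h. In the run without the other WM-2474 96 h cultures the 96 h adjusted p was 0.00843 for Racgap1, 0.0405 for Aurkb and 0.00599 for Prc1. A proliferation check of Mki67, Top2a, Cdk1 and Ccnb1 had all 4 lower at both times, with medians of -1.27 at 240 h and -0.39 at 96 h, and 3 of 4 lower at 96 h with culture 5 as the only WM-2474 96 h library. Mki67 was at 57.9 ± 4.1 CPM with WM-8014 and 167 ± 7.5 with WM-2474 at 240 h, and at 197 ± 11 with WM-8014 and 259 ± 14 with WM-2474 at 96 h. Proliferation genes moved with the mitotic kinesins, and the part of the number of dividing cells in that was not tested.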

How the data were processed

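Poly(A)-selected, stranded libraries (TruSeq Stranded mRNA) were sequenced, per the labels' protocols. The deposited table holds raw read counts per Entrez gene and library, made by the authors with featureCounts on mm10, per the submitters' processing notes. Strand setting, annotation and aligner were not given in the sources used here. The gene lengths deposited with the counts were used only for levels per kilobase.

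Of 27179 identifiers, 25275 were matched to symbols in a RefSeq table of GRCm38.p6. Counts were filtered with filterByExpr by group (14136 genes), scaled by TMM and fitted in edgeR 4.0.16 (R 4.3.3) with a mean for each of 4 groups over all 12 libraries. Each contrast had a two-sided quasi-likelihood F test (robust option) with Benjamini-Hochberg adjustment over all genes tested and a threshold of 0.05. The common biological coefficient of variation was 4.64%. A standard error is the absolute log2 fold change divided by the root of F, and gives the 95% interval. The fit was also run on simulated counts, with a common spread for all genes and changes in the WM-8014 96 h group only. That run did not cover spreads that differ between genes or the deviating WM-2474 96 h libraries. A floor of 3 reads corresponds to 0.0615 to 0.303 CPM, a limit of counting alone.

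Same-numbered cultures deviated together from their group means at 96 h (correlations of 0.141, 0.15 and 0.158, all over 0.1), and at 240 h not all did (0.0636, 0.243 and 0.0475). Between the times they were 0.0636, 0.19 and 0.0816 under WM-8014, and 0.0289, 0.102 and 0.0745 under WM-2474. The main fit did not use this pairing. A replicate block was an alternative, beside DESeq2 1.42.0, its size factors, no filter, thinned counts and left-out libraries. Replicate libraries differed by more than sampling noise (chi-square per degree of freedom of 2.10 to 7.13). Members, roles and lists were chosen with earlier results of these data known. Values in every library are given for 12 fixed kinesins and, in each role and contrast, for the 3 with the smallest adjusted p that passed. Of each partner list the 2 with the smallest p are given by their log2 fold changes.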

Additional observations from a re-analysis of the deposited data

Results flagged for a closer look

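For 15 kinesins the effect of WM-8014 differed between the 2 times by the interaction test. The mitotic ones, all with a more negative log2 fold change at 240 h, had interactions of -1.08 for Kif15, -0.998 for Kif14, -0.94 for Kif11, -0.88 for Kif23, -0.84 for Kif2c, -0.84 for Kif18b, -0.81 for Kif20b, -0.79 for Kif22, -0.73 for Kif4 and -0.61 for Kif20a. Those of the other kinesins were -0.81 for Kif21b and -0.66 for Kif26b. Transport kinesins gave positive interactions of 0.69 for Kif5a, 0.23 for Kif5b and 0.22 for Kif3b. Of the 15 calls, that of Kif3b was lost in 11 of 18 alternative runs, that of Kif5a in 6 and that of Kif21b in 4, with adjusted p values of up to 0.331 for Kif3b, 0.348 for Kif5a and 0.0566 for Kif21b. The Kif20a call was lost in 1, with an adjusted p of 0.0507 with culture 5 as the only WM-2474 96 h library, and the other 11 calls held in all 18.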

How the results depend on the processing

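Of 540 counts of called kinesins under 18 alternatives, 512 stayed within 1.5 times and 28 moved. Counts of 0 that stayed at 0 are among the 512, and mitotic kinesins higher were 0 in each comparison of the main fit. Many of these counts therefore had little room to move. Of 2874 adjusted p values of single kinesins, 2761 kept their side of the threshold, 100 lost it, 13 gained it and none changed its direction while called. With culture 5 as the only WM-2474 96 h library, counts at 96 h were 3 mitotic kinesins lower, 0 transport kinesins higher and 1 lower, and 0 other kinesins lower. The interaction then had 1 transport kinesin higher, and the change over time under WM-2474 had 2 transport kinesins higher, 1 lower and 2 other kinesins lower. Dropping libraries lowers the power of that run by itself. Thinning to the smallest total gave 1 transport kinesin higher at 96 h and 1 in the interaction, 2 transport kinesins lower over time under WM-8014 and 2 other kinesins lower over time under WM-2474. With no filter on low counts, 1 other kinesin was lower in the interaction. With the replicate block, 2 other kinesins were lower at 96 h, Kif24 being the added one (adjusted p = 0.0474), and the block moved no other count of calls beyond 1.5 times. DESeq2 and its size factors moved none of these counts beyond that. Leaving out single libraries gave 1 to 3 transport and 0 to 1 other kinesins higher and 1 to 2 other kinesins lower at 96 h. At 240 h it gave 1 to 2 other kinesins higher and 1 to 2 transport kinesins lower, and in the interaction 1 to 3 transport kinesins higher and 1 to 2 other kinesins lower. Over time under WM-8014 it gave 1 to 2 other kinesins higher and 1 to 2 transport kinesins lower. The cause of these moves was not tested.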

Other observations

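Cytoplasmic dynein and dynactin, the motor and activator for traffic toward microtubule minus ends, had 7 of 16 genes higher and 2 lower with WM-8014 at 240 h, where 21.2% of all genes were higher and 21.4% lower. At 96 h 2 were higher and 1 lower, beside 10.9% and 11.8% of all genes. The medians were 0.095 at 240 h and -0.0031 at 96 h. Dynll2, a dynein light chain, was higher, with a log2 change of 0.38 (SE 0.036, adjusted p = 2.19e-08) at 240 h and 0.13 (SE 0.036, adjusted p = 0.0163) at 96 h. Dctn4, a dynactin subunit, was higher, with a log2 change of 0.25 (SE 0.038, adjusted p = 1.29e-05) at 240 h and 0.13 (SE 0.039, adjusted p = 0.0177) at 96 h. Dync1i1, a dynein intermediate chain best known from neurons, was at 0.476 ± 0.069 CPM with WM-8014 and 1.23 ± 0.16 with WM-2474 at 96 h, lower, with a log2 change of -1.43 (SE 0.32, adjusted p = 0.00233). With culture 5 as the only WM-2474 96 h library none of the 16 passed at 96 h, with adjusted p values of 0.4 for Dynll2, 0.563 for Dctn4 and 0.206 for Dync1i1.

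Cargo adaptors of transport kinesins had 0 of 13 tested genes higher and 4 lower at 240 h, beside 21.2% of all genes higher and 21.4% lower, and 0 higher and 1 lower at 96 h, beside 10.9% higher and 11.8% lower. The median was -0.068 at 240 h and -0.011 at 96 h. Madd, which links Kif1a and Kif1b to Rab3 vesicles, was lower, with a log2 change of -0.74 (SE 0.090, adjusted p = 9.1e-07) at 240 h and -0.43 (SE 0.090, adjusted p = 0.00159) at 96 h, where its adjusted p was 0.364 with culture 5 as the only WM-2474 96 h library. Mapk8ip1, a scaffold that binds kinesin-1, was lower, with a log2 change of -0.46 (SE 0.091, adjusted p = 0.000332) at 240 h, with -0.082 (adjusted p = 0.54) at 96 h.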
